A study of Homo sapiens with 8 samples.

Results

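DU145, a human prostate cancer line that came from a brain metastasis, was compared with and without depletion of DNA-PK. The comparison rests on 2 of the 8 arrays of the series, chosen by their titles, which name DU145 with the control and DU145 with the DNAPK siRNA. The control culture had received a non-targeting siRNA and the other culture an siRNA against DNAPK. Both cultures were grown in DMEM and were harvested 48 hours after transfection. The labels call the DNAPK siRNA si7DNAPK and do not say how many sequences it held. Total RNA was extracted with TRIZOL, and 400 ng of it was made into biotinylated cDNA with a whole-transcript kit for an Affymetrix array. The other 6 arrays are the same pair of treatments in the prostate cancer lines C4-2B, PC3 and VCaP, and served here only to show how far differences of the same kind spread. The study asked which pathways are tied to DNAPK, with Wnt signalling named in its title.

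The kinase DNA-PK consists of a catalytic subunit, encoded by PRKDC, and the Ku heterodimer, encoded by XRCC5 and XRCC6. It binds broken DNA ends and directs non-homologous end joining, which rejoins them without a template. The catalytic subunit belongs to the same family of kinases as ATM and ATR, and it has also been described as a regulator of transcription in prostate cancer. DU145 is known as a line that grows without androgen and has lost RB function.

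Values are log2 signals, and each difference is DNAPK siRNA minus control, so that 1 is a 2-fold and 0.5 a 1.41-fold difference in signal. Of 22395 genes with a probe set of their own, 16796 were kept and 5599 with low signals over all 8 arrays were set aside. There was 1 array per treatment, so no value has a replicate error and no test was made. A difference between the cultures that has nothing to do with the siRNA cannot be told apart from its effect. As a gauge of spread, the SD of the difference was 0.29 over the genes set aside and 0.33 over the genes kept. Over the genes kept, the SD was 0.288 in C4-2B, 0.462 in VCaP and 0.327 in PC3. Precision is limited by the number of arrays.

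The identity of the line was checked on the control arrays. KLK2, a kallikrein gene driven by androgen, read 3.94 in DU145 against 10.70 in C4-2B and 11.37 in VCaP. The fusion partner ERG read 3.35 in DU145 and 8.57 in VCaP. PC3, with KLK2 at 4.42, ERG at 2.68, ITGB4 at 9.21 and CD44 at 8.38, was not set apart from DU145 by these markers, whereas TMPRSS2 read 2.18 in DU145 and 6.72 in PC3. Genes of the basal and mesenchymal kind were present, with ITGB4 at 6.93 in DU145 against 2.69 in C4-2B and 2.85 in VCaP, and CD44 at 6.94 against 2.51 and 3.89. EGFR read 9.06 and CDH1, which encodes E-cadherin, 9.21. KRT19 read 7.86, while KRT8 read 4.28 in DU145 and 4.0 to 4.36 in the other controls, and KRT5 at 2.24 was among the genes set aside. Of 24 immune cell markers measured, 2 reached a signal of 5, namely CD68 (7.73, then 7.94 with DNAPK siRNA) and CD79A (6.86, then 6.53), and of 20 fibroblast and endothelial markers none did. TAGLN, a smooth muscle and fibroblast marker, was past 1 in that list, from 4.84 to 3.55 (-1.29), and had -1.04 in C4-2B. The median signal over all probe sets was 2.97 on the control array and 2.99 on the DNAPK siRNA array.

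The target itself was lower. The PRKDC signal was 9.17 in the control and 8.08 with DNAPK siRNA, a difference of -1.08, which left 47.2% of the control signal. PRKDC ranked 105 from the lowest difference of all genes kept. In the other lines the PRKDC difference was -2.53 in C4-2B, -0.62 in VCaP and -1.99 in PC3, so the depletion of this transcript in DU145 lay between those of PC3 and VCaP.

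Past 1 on the log2 scale, 51 genes were higher with DNAPK siRNA, 0.304% of the genes kept, and 137 were lower, or 0.816%. Past 0.5, 989 genes were higher (5.89%) and 932 were lower (5.55%). Over all genes kept, 9553 lay above 0, or 56.9%, and the median difference was 0.05. The differences past 1 thus lay mostly below 0, while the small ones were spread to both sides of a median slightly above 0. Of the genes past 1, 29 of the higher and 86 of the lower are protein coding, and the rest are small RNA genes, pseudogenes, immune receptor segments and other types. Restricting to protein-coding genes that reached a signal of 5 on a DU145 array left 12 higher and 54 lower. Among the 8644 genes kept of any type at that signal, 17 were higher and 69 lower past 1, or 0.995%. How many genes kept are protein coding was not counted, so the protein-coding numbers have no share beside them. Of all genes past 1, 3 of the 51 higher and 13 of the 137 lower were past 1 the same way in at least 1 of the other lines, against 2.01% (higher) and 3.17% (lower) of all genes kept.

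**Figure D1:**
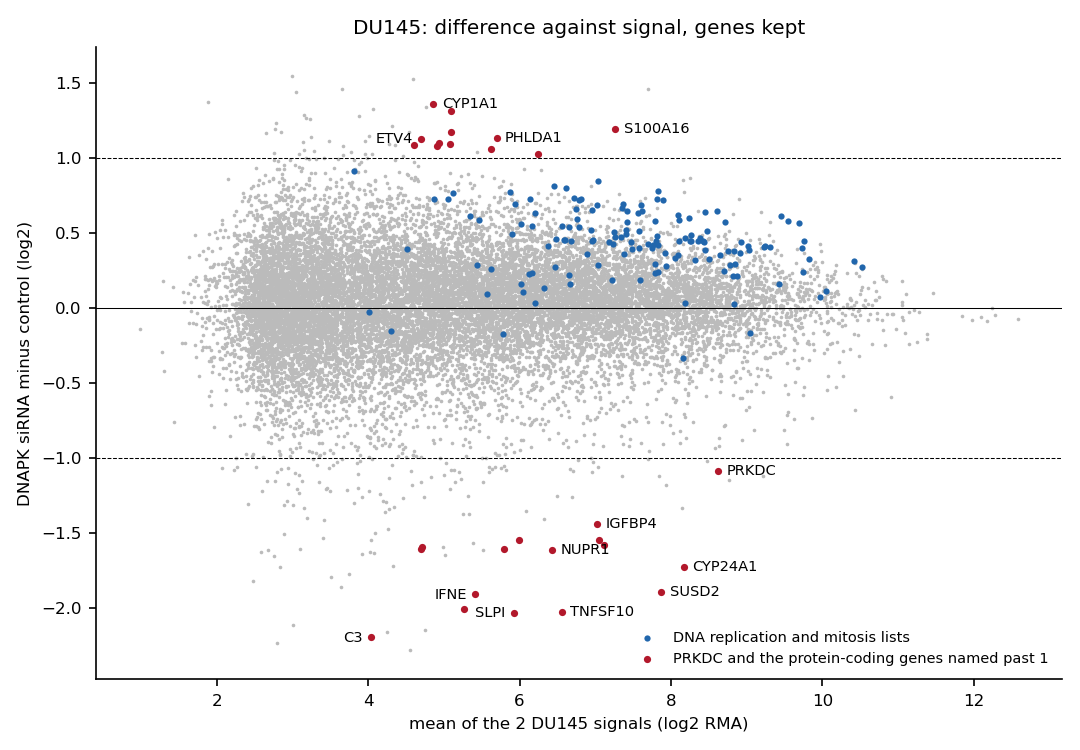
Each point is 1 of 16796 genes, placed by the mean of its DU145 signals (log2 RMA, horizontal axis) and by its difference, DNAPK siRNA minus control (log2, vertical axis). The dashed lines mark 1 and -1. The blue members of the DNA replication and mitosis lists form a band above 0 with none past 1, and the red points are PRKDC and the leading protein-coding genes, with C3 lowest among them at -2.20.

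Among protein-coding genes with a signal of at least 5, the lowest differences were those of C3, SLPI, TNFSF10, ATP2C2 and IFNE, which read 3.76-fold to 4.58-fold lower with DNAPK siRNA. C3, the central component of the complement cascade, went from 5.13 to 2.94, a difference of -2.20 and the lowest of any protein-coding gene kept. With DNAPK siRNA its signal was close to the level of 2.51 below which genes were set aside. SLPI, a secreted inhibitor of leukocyte proteases, went from 6.94 to 4.91 (-2.03). TNFSF10, which encodes the death receptor ligand TRAIL, went from 7.57 to 5.54 (-2.03). ATP2C2, a calcium pump of the secretory pathway, went from 6.27 to 4.26 (-2.01). IFNE, a type I interferon of epithelia, went from 6.37 to 4.46 (-1.91). These 5 genes had at most 26.6% of their control signal left, and PRKDC kept more of its own.

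SUSD2, a sushi-domain membrane protein, was high in the control at 8.82 and read 6.93 with DNAPK siRNA (-1.89). CYP24A1, the enzyme that inactivates vitamin D, went from 9.04 to 7.31 (-1.73). NUPR1, a small stress-induced regulator of transcription, went from 7.24 to 5.63 (-1.61). The A chain of coagulation factor XIII, F13A1, went from 6.60 to 4.99 (-1.61), and NLRP12, an innate immune sensor, from 5.50 to 3.91 (-1.59). LGSN, a relative of glutamine synthetase known from the lens, went from 7.90 to 6.33 (-1.58). IL20RB, a receptor subunit for cytokines of the IL-20 group, went from 7.82 to 6.28 (-1.54). IGFBP4, which binds insulin-like growth factors, went from 7.75 to 6.31 (-1.44), and HHIPL2 from 6.76 to 5.21 (-1.55). FAM83A read 5.50 and then 3.89 (-1.61) in the probe set used, but its other probe set had a difference of 0.12, so the direction for that gene depended on the probe set.

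The protein-coding genes that were higher past 1 numbered 12 with a signal of at least 5, and their differences were smaller. CYP1A1, a cytochrome P450 known as a target of the aryl hydrocarbon receptor, went from 4.18 to 5.54 (1.36). S100A16, a calcium-binding protein, went from 6.67 to 7.87 (1.20). IL1RL1, the receptor for interleukin-33, went from 4.51 to 5.69 (1.17). PHLDA1 and ETV4, genes known to be induced through the ERK pathway, went from 5.13 to 6.27 (1.14) and from 4.13 to 5.26 (1.13). UPP1, which encodes uridine phosphorylase, went from 5.09 to 6.16 (1.07), and SPNS2, a transporter of sphingosine-1-phosphate, from 4.54 to 5.63 (1.09). The remaining 5 were MEIOC (1.31), REXO5 (1.10), NRGN (1.09), YBX2 (1.08) and CCDC167 (1.03), of which MEIOC and YBX2 are known from germ cells. In the control, 8 of the 12 were below 5, as the plot of signals shows.

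**Figure D2:**
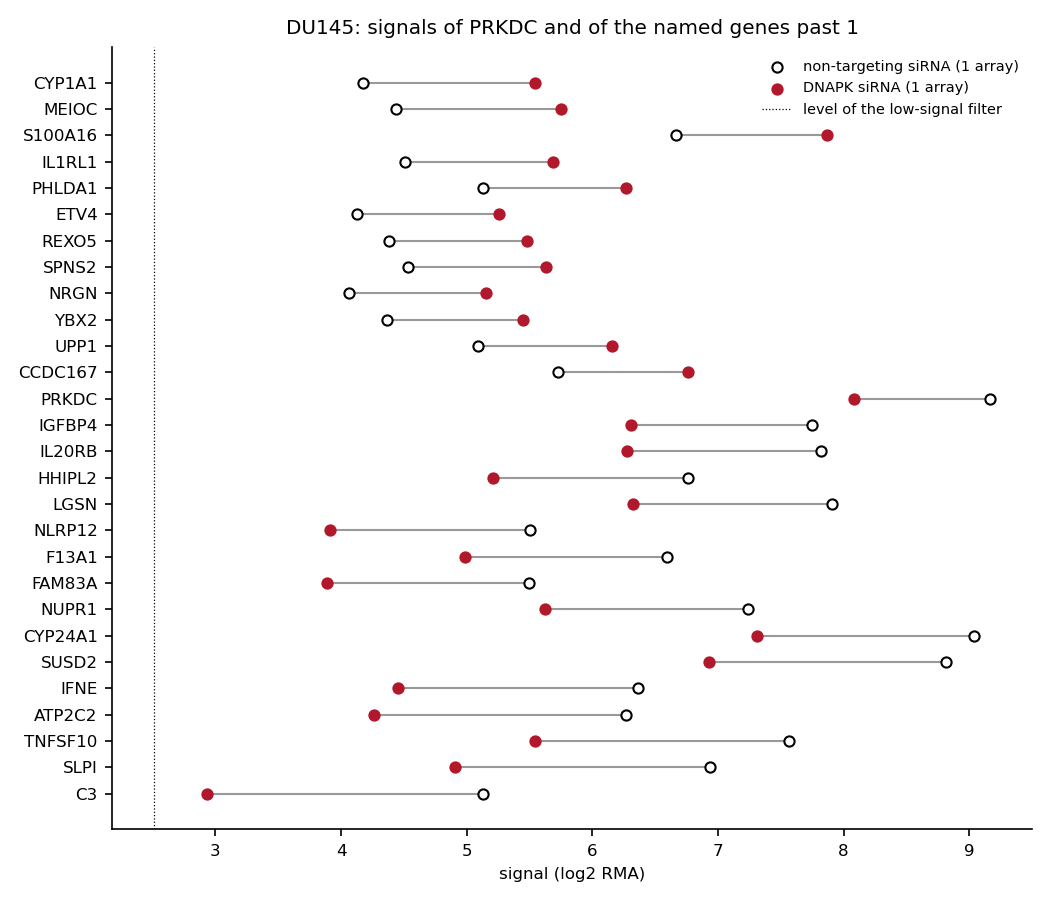
Signals (log2 RMA, horizontal axis) of PRKDC, of the 12 protein-coding genes higher past 1 and of the 15 with the lowest differences, with 1 array per treatment (open, non-targeting siRNA; filled, DNAPK siRNA). The dotted line is the low-signal level of 2.51. C3 moved from 5.13 to 2.94, and PRKDC from 9.17 to 8.08.

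Among genes with a DU145 signal of at least 5, those whose difference lay farthest outside the range of C4-2B, PC3 and VCaP were picked for that distance and are given as a description. A gene whose control signal in another line is near or under 2.51 has little room for a lower value there. This holds for LGSN, with 1.72, 1.88 and 1.92 in the C4-2B, PC3 and VCaP controls, for IFNE in C4-2B (1.62) and VCaP (1.67), and for C3 in both of these (2.57). SUSD2 was above that level in every line, with control signals of 4.62, 5.85 and 3.63 and differences of 0.34, -0.08 and 0.29. In PC3, IFNE had a control signal of 5.53 and a difference of 0.10. TRAV38-1 (-2.15), MIR4756 (-2.16), POM121L9P (-2.28), GAS6-DT (-1.56) and the 4 genes above made up the 8 farthest below. SLPI was not among them and was lower in every line, at -0.36 in C4-2B, -2.48 in VCaP and -0.72 in PC3. NUPR1 was lower in every line too, at -0.21, -1.11 and -0.13. Farthest above the range were the non-coding or segment genes RNY4P23 (1.53), IGLJ4 (1.18), FAM99B (1.34), DPY19L2P2 (0.84) and RN5S82 (1.04), with MEIOC (1.31) and the cell division genes CENPH (0.72) and KIF15 (0.74).

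The gene groups that differed together most clearly were those of the cell cycle, and all were higher with DNAPK siRNA. Of 65 genes of DNA replication and E2F targets kept, 63 lay above 0, with a median of 0.45. In the same list, 22 were higher past 0.5, none was past 1, and 50 lay above the range of the other lines, where 26.3% of all genes kept lay. Of 75 mitosis and spindle checkpoint genes, 72 lay above 0, also with a median of 0.45. Of these 28 were higher past 0.5, against 5.89% of all genes kept. None was past 1, and 69 lay above the range of the other lines. In bulk RNA, a larger share of cycling cells and more of these RNAs per cell cannot be told apart.

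In the replication list, the members ran from the loading of the origins to the synthesis of DNA. GINS2 and GINS4, subunits of the GINS complex of the replicative helicase, went from 6.04 to 6.86 (0.81) and from 4.74 to 5.51 (0.77). ORC1, a subunit of the origin recognition complex, went from 5.49 to 6.27 (0.78). CDC45, the helicase partner of GINS, went from 5.77 to 6.50 (0.73). The transcription regulators MYBL2 and E2F7 went from 7.54 to 8.26 (0.72) and from 5.60 to 6.29 (0.69). E2F1 had 0.62. All 6 subunits of the MCM2 to MCM7 helicase ring were above 0, from 0.39 (MCM3) to 0.51 (MCM5). The 2 members below 0 were POLD2 (-0.17) and E2F2 (-0.15). The MCM genes, E2F1, POLD2 and E2F2 were picked after their values were seen.

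In the mitosis list the largest difference was in PIF1, a DNA helicase, from 3.36 to 4.27 (0.92). PLK4, the kinase that starts centriole duplication, went from 6.61 to 7.46 (0.85). NUF2, a subunit of the NDC80 complex that ties kinetochores to microtubules, went from 6.21 to 7.01 (0.80). CDCA2 went from 7.44 to 8.22 (0.78), the spindle motor KIF15 from 6.36 to 7.09 (0.74) and the condensin subunit NCAPH from 6.44 to 7.17 (0.73). Widely used markers of proliferation, named after their values were seen, had smaller differences, with MKI67 at 0.32, TOP2A at 0.28, CCNB1 at 0.28 and PCNA at 0.21. The members below 0 were CDC25B (-0.33), BUB3 (-0.16) and RACGAP1 (-0.03).

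In the other lines the same lists had other values, and the difference between lines was not tested. In the replication list, 20 of 65 members lay above 0 in PC3, 37 in VCaP and 49 in C4-2B, with medians of -0.16, 0.05 and 0.14. In the mitosis list, 3 of 75 lay above 0 in PC3, 15 in VCaP and 34 in C4-2B, with medians of -0.32, -0.20 and -0.01. PIF1, for example, had 0.14 in PC3, -0.46 in VCaP and -0.17 in C4-2B, and KIF15 had -0.26, -0.47 and -0.23.

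**Figure D3:**
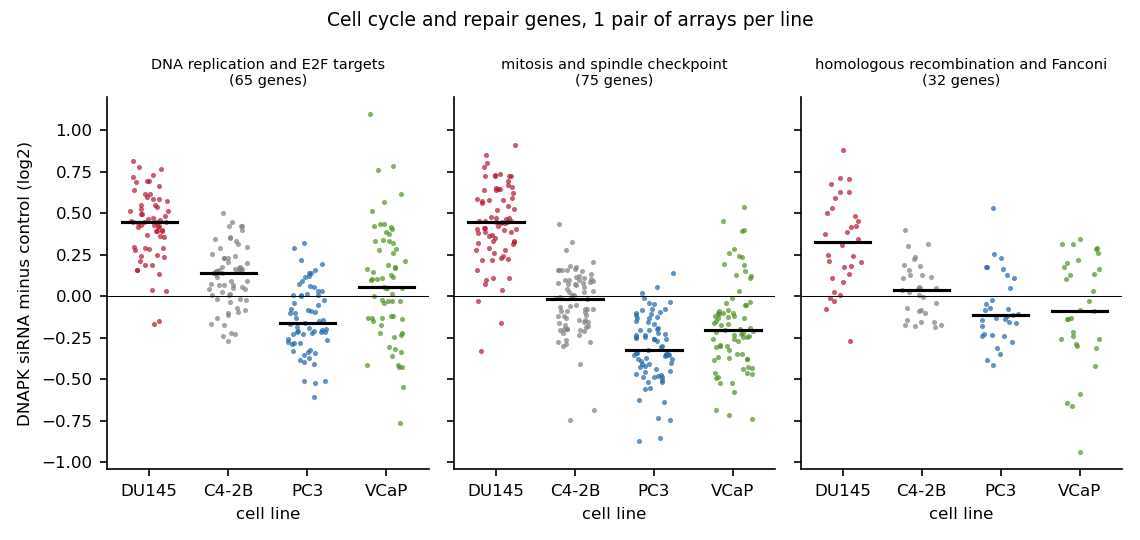
Each point is 1 gene's difference, DNAPK siRNA minus control (log2, vertical axis), in each cell line (horizontal axis), for 3 gene lists, and the bar is the median. In DU145 the points lie mostly above 0, with medians of 0.45, 0.45 and 0.33, while in PC3 all 3 medians lie below 0. The horizontal scatter of points carries no information.

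Genes of the upper cell cycle control showed smaller differences. Among 23 members of the RB family, D cyclins, CDK inhibitors and the DREAM complex, 16 lay above 0, none was past 0.5, and the median was 0.08. MYBL1 went from 9.05 to 9.54 (0.49), and the DREAM subunits LIN52 (0.42) and LIN54 (0.39), the kinase CDK2 (0.40) and E2F4 (0.39) were higher, while the pocket protein gene RBL2 went from 7.53 to 7.14 (-0.39). CDKN1A, which encodes the CDK inhibitor p21 and was named after its value was seen, read 5.06 and 5.07. Replication-dependent histone genes were split, with 9 of 18 above 0. H2BC13 (0.84), H1-5 (0.76) and H1-4 (0.64) were among the higher members and H2BC18 (-0.86) was the lowest, with 3 probe sets from -0.86 to -0.41. Histone genes are near-identical copies, so signals can be shared among them.

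Since the replication and mitosis members were higher together, their promoters were searched for the words known from cell cycle promoters. The windows were those of RefSeq on GRCh38.p14, of 300 bases, from 250 before the gene's start to 50 after. Of the replication list, 56 genes matched with 75 promoters, and of the mitosis list 63 genes with 78 promoters. The E2F site was searched as TTTCCCGC, TTTGGCGC, TTTCGCGC and TTTGCCGC, and the cell cycle homology element as TTTGAA and TTCGAA, all on both strands. None of these words is part of another, and the CCAAT box was searched as CCAAT. An E2F word was found in 37.3% of the replication promoters and 7.69% of the mitosis promoters, against 3.31% of all 35116 promoters and 4.37% of the 17686 promoters of genes kept. A cell cycle homology word was found in 65.4% of the mitosis promoters and 6.67% of the replication promoters, against 16.4% of all promoters and 12.1% of those of genes kept. CCAAT was found in 67.9% of the mitosis and 53.3% of the replication promoters, against 34.6% of all. The lists were drawn up from known cell cycle genes, many of which are known for these elements, so the shares describe the lists and do not follow from the arrays. A match is a description of the letters, not a shown binding site.

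4 promoters are printed, 2 for each kind of word, to show where in the window the words lie in members with a higher signal. Capitals mark the matched words, and each sequence runs 5′ to 3′ along the gene. The GINS2 window lies at chr16:85688905-85689204 on the minus strand, with the E2F word 31 bases before the start. The E2F1 window lies at chr20:33686336-33686635 on the minus strand, with words beginning 33 and 20 bases before the start. The PIF1 window lies at chr15:64825598-64825897 on the minus strand, with the homology word 20 bases before the start. The NUF2 window lies at chr1:163321704-163322003 on the plus strand, with the word 16 bases after the start.
GINS2: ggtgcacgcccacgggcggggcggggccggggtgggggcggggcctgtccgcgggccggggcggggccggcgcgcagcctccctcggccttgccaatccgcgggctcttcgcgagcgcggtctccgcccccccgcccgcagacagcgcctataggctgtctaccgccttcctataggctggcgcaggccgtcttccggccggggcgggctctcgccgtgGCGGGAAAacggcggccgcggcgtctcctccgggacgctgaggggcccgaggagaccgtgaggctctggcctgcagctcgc
E2F1: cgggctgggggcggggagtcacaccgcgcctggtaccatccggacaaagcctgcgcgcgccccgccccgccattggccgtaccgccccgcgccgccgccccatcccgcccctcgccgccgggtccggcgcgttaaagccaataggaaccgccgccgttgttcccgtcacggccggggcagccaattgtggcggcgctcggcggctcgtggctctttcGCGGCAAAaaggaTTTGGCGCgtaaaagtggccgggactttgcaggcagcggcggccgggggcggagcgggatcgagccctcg
PIF1: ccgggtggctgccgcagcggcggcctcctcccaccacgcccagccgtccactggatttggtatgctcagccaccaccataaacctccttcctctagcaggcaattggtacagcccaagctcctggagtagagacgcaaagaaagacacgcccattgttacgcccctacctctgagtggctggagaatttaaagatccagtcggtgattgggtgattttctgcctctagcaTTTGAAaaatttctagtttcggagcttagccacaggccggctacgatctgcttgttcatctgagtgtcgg
NUF2: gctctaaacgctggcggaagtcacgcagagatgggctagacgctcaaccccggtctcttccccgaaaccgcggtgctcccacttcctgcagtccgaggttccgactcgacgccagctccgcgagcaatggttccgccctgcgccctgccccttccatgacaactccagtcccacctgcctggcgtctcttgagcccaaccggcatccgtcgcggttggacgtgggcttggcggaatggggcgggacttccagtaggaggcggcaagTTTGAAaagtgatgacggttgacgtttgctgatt

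DNA repair genes other than PRKDC were split by pathway. Of 32 homologous recombination and Fanconi genes kept, 28 lay above 0, and the median was 0.33. Past 0.5, 9 were higher, against 5.89% of all genes kept. RAD54L, a motor protein of homologous recombination, went from 4.79 to 5.67 (0.88). RAD51AP1, a recombination accessory factor, went from 5.85 to 6.56 (0.71), and EME1, a subunit of a nuclease for branched DNA, from 5.38 to 6.09 (0.71). BRCA1 went from 6.37 to 7.04 (0.68), FANCG from 5.18 to 5.81 (0.63) and the ubiquitin-conjugating enzyme gene UBE2T from 8.50 to 9.13 (0.63). In this list 9 of 32 members lay above 0 in PC3, 14 in VCaP and 19 in C4-2B. Of the 40 genes listed, 8 had no probe set with 1 symbol and were not analysed here.

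The partners of DNA-PK itself differed little. Of 15 end joining genes kept, 13 lay above 0 but only 1 was past 0.5, and the median was 0.13. The Ku genes XRCC6 and XRCC5 had 0.12 and 0.07, values looked up after the results were seen. DCLRE1C, which encodes Artemis, the nuclease that DNA-PK activates, went from 5.61 to 6.26 (0.65). PAXX went from 5.36 to 5.79 (0.43), CYREN from 5.61 to 5.95 (0.34) and XRCC4, the partner of ligase IV, from 7.08 to 7.35 (0.27). Kinases of the same family and their checkpoint partners had a median of 0.12, with 15 of 17 above 0. CLSPN, the claspin gene of the replication checkpoint, went from 6.92 to 7.58 (0.66) and was the 1 member past 0.5. ATR had 0.12 and MTOR 0.07, both looked up after the results were seen. Among 31 genes of mismatch, base and nucleotide excision repair the median was 0.11, with NEIL2 (0.57) and DDB2 (0.51) highest and XPA (-0.45) lowest.

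The p53 target genes showed no shared direction, with 21 of 35 above 0 and a median of 0.04, close to that of all genes kept. GDF15, a stress-induced cytokine, went from 2.60 to 3.86 (1.26), starting near the low-signal level. PLK2 went from 7.45 to 6.45 (-1.0) and TP53INP1 from 6.40 to 5.44 (-0.96). ACER2 (0.71) and the death effector gene BAX, from 5.08 to 5.70 (0.62), were higher. Among 24 BCL2 family and caspase genes BAX and BAK1 (5.16 to 5.75, 0.59) were past 0.5 and BCL2A1 (4.27 to 3.64, -0.63) was lower past 0.5.

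Wnt signalling, the pathway in the study's title, begins with a secreted ligand that binds a Frizzled receptor and an LRP co-receptor. This stabilises beta-catenin, which then acts with TCF factors on target genes, while the R-spondins and the ligases RNF43 and ZNRF3 set how many receptors stay on the surface. In DU145 the receptor genes were mostly lower, the ligands and the beta-catenin core were spread around 0, and several targets were lower. Of 19 receptors and co-receptors, 5 lay above 0, with a median of -0.19, and 9 lay below the range of the other lines, against 22.9% of all genes kept. FZD2 went from 5.45 to 4.74 (-0.71), FZD5 from 5.08 to 4.45 (-0.63) and FZD4 from 4.12 to 3.65 (-0.47). FZD10, ROR2 and LGR6 (-0.40, -0.40 and -0.36) had signals below 4 on both arrays. LRP5 and LRP6, looked up after the values were seen, had -0.31 and -0.30. FZD4 was lower in the other lines too, by more, at -0.79, -1.08 and -0.67 in C4-2B, PC3 and VCaP. In the same order of lines FZD2 had 0.05, 0.14 and -0.67, FZD5 had 0.04, 0.90 and -0.17, and ROR2 had -0.26, -0.46 and 0.00.

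Among 23 Wnt ligand genes 12 lay above 0, with a median of 0.02, and only 1 of the 23 reached a signal of 5. RSPO3, an R-spondin, went from 4.90 to 3.27 (-1.63), while in the other lines its control signal was at most 2.26, too low to show a lower value. WNT4 went from 3.45 to 2.47 (-0.98), ending below the low-signal level. RSPO4 (0.63) and WNT10B (0.60) were higher, at signals below 4. Among the 40 genes of the beta-catenin core, 22 lay above 0, with a median of 0.04. AXIN1, a scaffold of the complex that degrades beta-catenin, went from 4.88 to 5.53 (0.65), while AXIN2, its relative and a target of the pathway, went from 4.47 to 3.84 (-0.63). CSNK1E read 6.54 and 5.99 (-0.55) in the probe set used, but its 3 probe sets ran from -0.55 to 0.60, and their mean was 0.12, so no direction is given for it.

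Of 44 Wnt target genes, 19 lay above 0, with a median of -0.07, 8 were lower past 0.5 and 2 higher. Among all genes kept, 5.55% were lower past 0.5 and 5.89% higher. CEMIP, a hyaluronan-degrading protein, went from 6.13 to 5.07 (-1.06) and was the 1 target past 1. SNAI2, a repressor of epithelial genes, went from 7.05 to 6.17 (-0.88). BMP4 went from 6.76 to 6.01 (-0.75), CCN2 from 3.65 to 2.90 (-0.75) and the feedback ligase RNF43 from 6.07 to 5.34 (-0.73). Its relative ZNRF3 went from 5.08 to 4.63 (-0.45). In the other direction FOSL1, an AP-1 subunit, went from 7.81 to 8.68 (0.87). CCND1 and MYC, often used as readouts of the pathway and named after their values were seen, had -0.08 and -0.07. Among 20 antagonists the median was -0.06, with SFRP5 (0.72), SHISA2 (0.58) and APCDD1 (0.56) highest, each with signals below 4. Among 41 genes of the planar polarity and calcium arms 22 lay above 0, with the extremes at MAPK10 (-0.77) and NFATC2 (0.64). MAPK10 went from 2.74 to 1.97, and with signals raised to the low-signal level its difference was -0.23.

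Genes of the TGF-beta and BMP pathway were also mostly lower. Of 48 kept, 16 lay above 0, with a median of -0.21. In the list, 11 were lower past 0.5, against 5.55% of all genes kept. Below the range of the other lines lay 19, against 22.9% of all genes kept. Above 0 lay 15 of the 48 in C4-2B, 19 in VCaP and 25 in PC3, with medians of -0.09, -0.11 and 0.02. The inhibitor of differentiation gene ID3, a direct BMP target, went from 5.75 to 4.66 (-1.09), against 1.66 in VCaP, 0.18 in C4-2B and -0.05 in PC3. The feedback inhibitor genes SMAD6 and SKIL went from 5.42 to 4.63 (-0.79) and from 7.02 to 6.12 (-0.90). LTBP2, a matrix protein of the latent TGF-beta binding family, went from 6.15 to 5.19 (-0.96). The TGF-beta targets PMEPA1 and TGFBI went from 5.54 to 4.80 (-0.74) and from 6.83 to 6.16 (-0.67). GDF15 (1.26) was the only member of the list higher past 0.5.

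Matrix and adhesion genes had medians below 0, at -0.14 for 41 collagen and matrix genes and -0.12 for 28 integrins and laminins. EFEMP1, a fibulin, went from 9.78 to 8.66 (-1.12), THBS1, thrombospondin, from 8.35 to 7.44 (-0.91) and NID1, nidogen, from 6.40 to 5.63 (-0.77). COL13A1 (3.67 to 4.51, 0.85) and LOXL1 (4.04 to 4.81, 0.77) were higher. ITGB3, the integrin beta-3 chain, went from 5.56 to 4.45 (-1.11), ITGB8 from 4.47 to 3.68 (-0.79) and LAMA1 from 6.69 to 6.07 (-0.62). MMP1, a collagenase, went from 2.54 to 3.81 (1.27), starting at the low-signal level, and in PC3 it had -2.05. Among genes of the epithelial-mesenchymal switch, KLF8 (-0.82), TGFBI (-0.67) and SNAI3 (-0.66) followed SNAI2. VIM and CDH1 had -0.04 and -0.14, KRT7 went from 7.42 to 6.98 (-0.44) and CDH3, P-cadherin, from 10.33 to 9.79 (-0.54).

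The interferon, NF-kB and complement lists had medians below 0, at -0.11, -0.11 and -0.14, and the antigen presentation list had 0.03. Of 56 interferon-stimulated genes, 21 lay above 0 and 10 were lower past 0.5, against 5.55% of all genes kept. Below the range of the other lines lay 25, against 22.9% of all genes kept. The same list had a median of 0.76 in PC3. IFITM3 and IFITM1, which restrict the entry of viruses, went from 5.11 to 4.03 (-1.08) and from 4.40 to 3.55 (-0.85). OAS1, a sensor of viral RNA, went from 4.84 to 3.79 (-1.05), IFI6 from 7.18 to 6.30 (-0.88) and GBP2 from 5.78 to 4.99 (-0.79). IFIT1, named after its value was seen, was higher (0.72). In antigen presentation PSMB9, an immunoproteasome subunit, went from 5.37 to 4.11 (-1.26), with its 4 probe sets from -1.26 to -1.05, and TAPBPL from 4.56 to 3.79 (-0.77). CD274, which encodes the checkpoint ligand PD-L1, went from 5.08 to 5.78 (0.70). Of the 28 genes of that list 15 lay above 0.

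Of 43 NF-kB targets, chemokines and cytokines kept, 17 lay above 0. Lower past 0.5 were 7, led by TNFSF10, against 5.55% of all genes kept. IL6 went from 4.55 to 3.55 (-1.0), and TNFAIP2 from 7.53 to 6.86 (-0.67). LIF, a cytokine of the IL-6 family, went from 6.48 to 7.16 (0.68), and RELB, an NF-kB subunit, from 4.0 to 4.56 (0.56). Of 38 complement genes listed 18 were kept and 7 of them lay above 0. The lower ones next to C3 were the protease gene C1S (4.28 to 3.36, -0.92), C1RL (5.79 to 5.17, -0.62), CLU, clusterin (5.93 to 5.39, -0.55), and CD55, an inhibitor of complement on the cell surface (7.21 to 6.68, -0.53), while C5 went from 5.12 to 5.60 (0.48). Without the low-signal filter the complement median was -0.01.

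Antioxidant genes controlled by NRF2 were among the lists with the lowest medians, at -0.21. Of 36 kept, 7 lay above 0, 6 were lower past 0.5 and 3 of them past 1. Among all genes kept, 56.9% lay above 0, 5.55% were lower past 0.5 and 0.816% lower past 1. AKR1C3, an aldo-keto reductase that also makes androgens, went from 4.55 to 3.29 (-1.26). GPX2, a glutathione peroxidase, went from 4.05 to 2.85 (-1.20), and the efflux pump genes ABCC3 and ABCC2 from 8.99 to 7.97 (-1.02) and from 6.39 to 5.83 (-0.56). The epoxide hydrolase gene EPHX1 went from 7.76 to 6.91 (-0.85) and TRIM16L from 6.72 to 5.90 (-0.81). The glutathione and NADPH enzyme genes GCLC, PGD and NQO1 had -0.44, -0.42 and -0.24, while HMOX1 had 0.48. The last 4 genes were likewise named once their values were known. In the other lines the list had medians between -0.03 and 0.01.

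**Figure D4:**
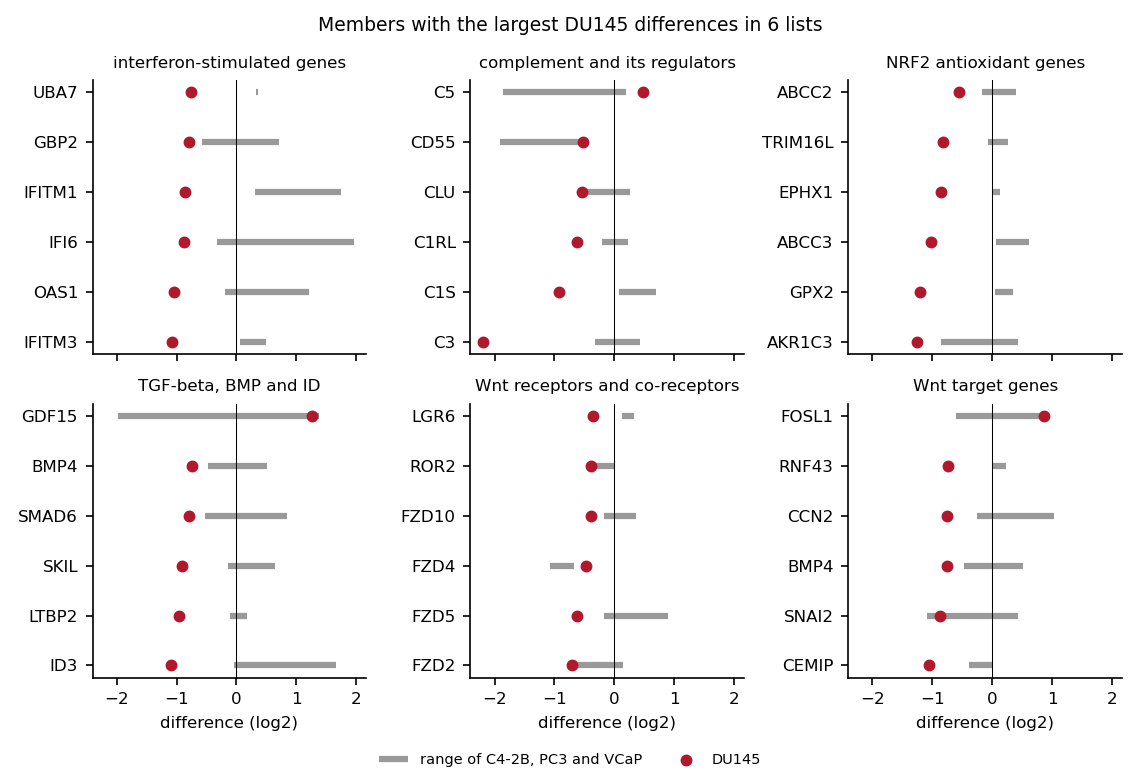
For 6 gene lists, the members with the largest DU145 differences (points, DNAPK siRNA minus control, log2) are set beside the range of the differences in C4-2B, PC3 and VCaP (grey bars). C3 at -2.20, OAS1 at -1.05 and GPX2 at -1.20 lie below their bars, whereas SNAI2 and GDF15 lie within theirs. Bars of genes with low signals in the other lines, such as C3, have little room to reach lower values.

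Stress and growth genes differed by list. Of 28 heat shock proteins and cochaperones, 25 lay above 0, with a median of 0.23. FKBP4, a cochaperone of HSP90 and steroid receptors, went from 6.42 to 7.10 (0.68), CHORDC1 from 5.90 to 6.51 (0.61), HSPA4L from 7.47 to 7.99 (0.53) and HSPB1 from 9.13 to 9.58 (0.45). Of 36 MYC and ribosome biogenesis genes 33 lay above 0, with a median of 0.14 and ODC1, the first enzyme of polyamine synthesis, leading from 9.02 to 9.60 (0.57). In the ATF4 list of amino acid and redox genes, 23 of 42 lay above 0, and NUPR1 (-1.61), JDP2 (-0.79) and CEBPB (-0.72) stood against GDF15 (1.26) and ATF3 (0.63). The 42 ATF4 genes had a median of 0.04 in DU145 against -1.11 in VCaP and -0.35 in C4-2B. Immediate-early genes were divided, with PHLDA1, ETV4, FOSL1 and SPRY1 (3.93 to 4.65, 0.73) higher and DUSP4 (3.65 to 2.83, -0.82) lower. Among growth factors, the EGFR ligand EREG went from 7.79 to 8.57 (0.78) and VEGFC from 5.36 to 6.11 (0.74), while IGF2R went from 8.0 to 7.36 (-0.64).

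Metabolic and housekeeping lists stayed near the median of all genes. Medians were 0.09 for 62 respiratory chain subunits, 0.06 for 46 hypoxia and glycolysis genes, 0.04 for 32 sterol and fatty acid genes, 0.04 for 46 ribosomal proteins and 0.08 for 45 spliceosome genes. Lysosome and autophagy genes had -0.01, although CTSD, cathepsin D, went from 9.99 to 9.25 (-0.74) and CTSB, cathepsin B, from 6.44 to 5.84 (-0.60). Androgen-responsive genes and kallikreins had a median of 0.00 over 27 genes, with 14 above 0. There TMPRSS2 went from 2.18 to 3.37 (1.20) and KLK3 from 3.84 to 2.94 (-0.90), both at signals far below those of C4-2B, where they read 9.56 and 10.12 in the control.

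**Figure D5:**
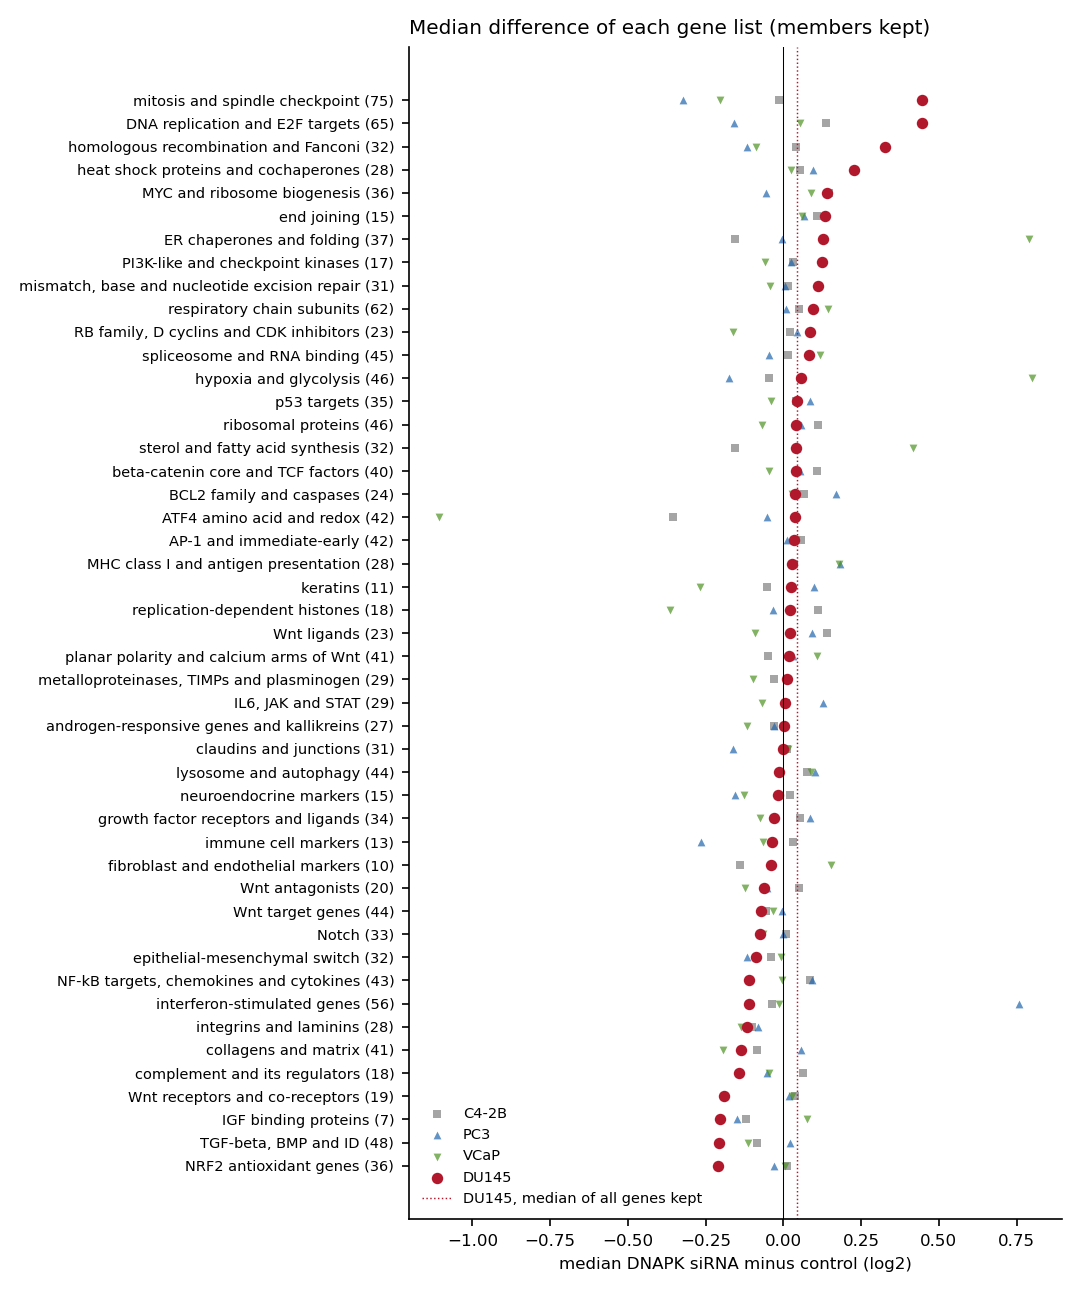
Median difference (log2, horizontal axis) of the kept members of 47 gene lists (number kept in brackets), with 1 symbol per cell line. The dotted line is the DU145 median of all genes kept, 0.05. In DU145 the mitosis, replication and homologous recombination lists lie highest (0.45, 0.45 and 0.33), and the NRF2 and TGF-beta lists lowest (-0.21 each).

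Beyond protein-coding genes, 441 microRNA genes were kept, of which 5 were higher and 18 lower past 1, or 5.22% of them. Of all genes kept, 0.304% were higher and 0.816% lower past 1. The median of the microRNA genes was -0.07. MicroRNAs silence messages that pair with their seed, bases 2 to 8 of the mature strand. The arrays read RNA of the gene and do not tell the mature strand apart from its hairpin or a longer host transcript. MIR1587 (3.91 to 1.67, -2.23) and MIR4756 (5.33 to 3.17, -2.16) had the lowest values. MIR1587 ended below the low-signal level, and with signals raised to that level its difference was -1.39. The other microRNA genes named here were picked after their values were seen, because pairs of them share a seed. MIR181A2 went from 4.81 to 3.26 (-1.55) and MIR181B2 from 5.27 to 4.12 (-1.16). MIRLET7D went from 4.85 to 3.71 (-1.13), whereas MIRLET7A1 went from 2.92 to 3.92 (1.0). The mature sequences of RefSeq are printed with the seed in capitals, to show the seed shared within each family.
hsa-miR-181a-5p: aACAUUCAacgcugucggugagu
hsa-miR-181b-5p: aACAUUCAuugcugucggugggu
hsa-let-7d-5p: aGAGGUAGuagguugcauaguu
hsa-let-7a-5p: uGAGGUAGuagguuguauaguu
hsa-miR-1587: uUGGGCUGggcuggguuggg

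MIR181A2 and MIR181B2, whose printed strands share the seed ACAUUCA, were both lower, and MIRLET7D and MIRLET7A1, whose strands share GAGGUAG, lay on opposite sides of 0. Other genes also encode some of these strands, of which MIR181B1 had -0.68 and MIRLET7A2 had 0.16. In RefSeq, MIR181A2 and MIR181B2 lie on the plus strand of chromosome 9, their printed sequences starting at 124692480 and 124693725. MIRLET7A1 and MIRLET7D lie there too, with starts at 94175962 and 94178841. Whether 1 longer transcript holds both genes of a pair was not tested. In the control, MIR4756 and MIR181B2 read above 5, and MIR1587, MIR181A2, MIRLET7D and MIRLET7A1 below 5. The share past 1 among genes kept with signals under 5 was 1.25%, against 0.995% at 5 or more. It was 0.554% among the genes set aside and 5.22% among the microRNA genes kept. Among probe sets with no symbol or several and a mean above the low-signal level it was 4.8%, close to the microRNA share. Of any gene type, the highest differences were in DDTL (2.22 to 3.77, 1.55), RNY4P23 (3.83 to 5.36, 1.53) and ZNF90 (2.92 to 4.38, 1.46), all from signals below 4 in the control.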

How the data were processed

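RNA of 8 cultures was measured, 1 array per treatment in each of 4 cell lines, and only the 2 DU145 arrays form the comparison. As deposited, each probe set has a log2 signal. It was made with oligo by RMA (robust multi-array averaging: background correction, equal distributions on every array, and a summary over probes), per the submitters' processing notes, with no version. Making distributions alike removes a change shared by most genes. No source used here gives the array's genome build, so probe sets carry no coordinates. The coordinates printed for promoter windows and mature microRNA strands are those of RefSeq on GRCh38.p14.

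Of 53617 probe sets, 23871 had 1 gene symbol in the platform annotation, 1842 had several and 27904 were unnamed. Symbols of 22569 were updated through RefSeq (GRCh38.p14). The probe set with the highest mean stood for each of 22395 genes, 632 of which had several. Genes whose mean did not exceed the 25th percentile (2.51) were set aside. Some listed genes had no probe set with 1 symbol and were not analysed here. All columns were used.

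Differences were taken with Python 3.11.15, pandas 2.3.3 and numpy 2.4.6, and plots with matplotlib 3.10.9. The 7 alternatives included cyclic loess (limma 3.58.1, R 4.3.3). On simulated data with known shifts, the mean differences were checked against the shifts, and the counts past 1 were listed without a check. The members, gene lists and naming rule were chosen with earlier results of these data known. The rule names PRKDC, up to 15 protein-coding genes each way past 1 with a signal of at least 5, the 3 most extreme genes each way of any type, up to 6 members per list, the 8 genes each way farthest outside the other lines' range (signal at least 5) and the identity markers. List members past 1 are also named.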

Additional observations from a re-analysis of the deposited data

Results flagged for a closer look

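For 6 comparisons of a gene list between lines, the list's median lay at least 0.1 above 0 in one line and at least 0.1 below it in the other. None of these differences was tested, since each line has 1 pair of arrays. Of these, 3 set DU145 against PC3 for genes of cell division and repair. The mitosis and spindle checkpoint median was 0.45 in DU145 and -0.32 in PC3, a difference of 0.77, and it was -0.20 in VCaP, a difference of 0.65. The DNA replication and E2F target median was 0.45 in DU145 and -0.16 in PC3, a difference of 0.61. The homologous recombination and Fanconi median was 0.33 in DU145 and -0.12 in PC3, a difference of 0.44. The interferon-stimulated genes lay the other way, at -0.11 in DU145 and 0.76 in PC3, a difference of -0.87. The endoplasmic reticulum chaperones had 0.13 in DU145 and -0.15 in C4-2B, a difference of 0.28, but VCaP had 0.79 and only 1 of the 37 members lay above the range of the other lines in DU145. MANF went from 4.72 to 5.38 (0.66) and SDF2L1 from 4.66 to 5.19 (0.53), against 2.14 and 1.37 in VCaP, and EDEM1 from 7.32 to 6.76 (-0.56).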

How the results depend on the processing

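With 1 array per treatment no replicate could be left out, and no paired analysis was possible because the DU145 groups hold 1 array each. Keeping only genes above the 50th percentile of signal left 26 genes higher and 71 lower past 1, with fewer genes counted, against 51 and 137. The complement median was -0.29 with that filter and -0.0115 with no filter, against -0.14. The stricter filter also moved the medians of the Wnt antagonists to -0.30, of the neuroendocrine markers to 0.17 and of the fibroblast and endothelial markers to 0.08, from -0.06, -0.02 and -0.04. For CSNK1E the mean of all its probe sets was 0.12 in place of -0.55. Under cyclic loess the median of all genes was 0.00 and 44 genes were higher and 160 lower past 1; with median-centred differences these were 39 and 170. PRKDC stayed between -1.13 and -1.08 in all 7 alternatives. The medians of the replication list (0.39 to 0.45), the mitosis list (0.39 to 0.45), the homologous recombination list (0.28 to 0.35), the NRF2 list (-0.26 to -0.19) and the TGF-beta list (-0.25 to -0.14) kept their sign in all 7. With signals raised to the low-signal level, 9 of 310 named genes moved by more than 0.29, the SD over low-signal genes. Low signals limit the genes that start near 2.51, GDF15, MMP1, TMPRSS2 and DDTL among them.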

Other observations

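Of 29746 probe sets with no symbol or several, 15154 had a mean signal above the low-signal level. Of those, 339 were higher and 389 lower past 1 in DU145, or 4.80%, and they were not named here.

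The following genes were picked after their values were seen. HLA-DRA, the alpha chain of HLA-DR, went from 4.64 to 2.86 (-1.77). The iron reductase gene CYBRD1 went from 8.40 to 7.28 (-1.12), and the scramblase gene PLSCR4 from 5.95 to 4.57 (-1.38). HEG1, a membrane protein of cell junctions, went from 8.81 to 7.48 (-1.33), and B4GALT1, a galactosyltransferase of the Golgi, from 8.53 to 7.35 (-1.18).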
